A study of Mus musculus with 44 samples.

Results

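The AP-1 and EGR immediate-early factors described here are 10 genes: Jun, Junb, Jund, Fos, Fosb, Fosl1, Fosl2, Atf3, Egr1 and Ier2. They were found by symbol, and all 10 were present among the 22674 genes measured in the maturation window and among the 18274 genes measured in the ovulation window. RNA sequencing had been done on follicles from wild-type (WT) mice of the outbred CD-1 stock, labelled as ovary, in 44 libraries. In the maturation window, 11 control libraries from follicles given DMSO, a solvent, were compared with 10 libraries from follicles given PFNA (perfluorononanoic acid, a fluorinated surfactant of the PFAS class). In the ovulation window, 12 control libraries given hCG (human chorionic gonadotropin, the hormone used to trigger ovulation) were compared with 11 libraries given hCG and PFNA. Dose, exposure time, the age of the animals and whether libraries of a group came from separate animals are not in the labels, so p-values measure only the spread between these libraries.

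Immediate-early genes are transcribed within minutes of a growth factor, hormone or stress signal, from promoters already loaded with factors such as SRF and CREB, and their messengers decay quickly. JUN and FOS proteins pair through leucine zippers to form AP-1, which binds the palindrome TGACTCA, while EGR1 binds a GC-rich site through zinc fingers. In granulosa cells the surge of luteinizing hormone, which hCG imitates, is known to raise EGR1 and several FOS and JUN proteins on the way to ovulation.

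Promoter sequences are shown for the factors whose levels moved most in the ovulation window and for Fos, because the sites in them are where upstream signals are known to arrive. RefSeq windows on GRCm38.p6 were matched for 7 of the 10 genes, and none was matched for Fosl1, Egr1 and Ier2. Each run below is the 250 bases before the RefSeq start, written 5′ to 3′ on the strand of the gene, with capitals at the motif matches. They lie at chr4:95052223-95052472 (minus strand) for Jun, chr7:19310046-19310295 (minus) for Fosb, chr1:191183334-191183583 (minus) for Atf3, chr8:84978749-84978998 (minus) for Junb and chr12:85473640-85473889 (plus) for Fos.
Jun: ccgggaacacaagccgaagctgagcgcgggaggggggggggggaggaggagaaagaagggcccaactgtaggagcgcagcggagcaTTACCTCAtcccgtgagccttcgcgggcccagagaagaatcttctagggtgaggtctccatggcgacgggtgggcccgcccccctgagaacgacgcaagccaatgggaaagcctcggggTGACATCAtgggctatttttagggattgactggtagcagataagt
Fosb: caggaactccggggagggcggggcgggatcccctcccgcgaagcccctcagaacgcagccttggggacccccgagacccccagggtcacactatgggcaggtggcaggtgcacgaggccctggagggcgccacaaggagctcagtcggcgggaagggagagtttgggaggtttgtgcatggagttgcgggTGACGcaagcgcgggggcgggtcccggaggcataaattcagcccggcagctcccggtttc
Atf3: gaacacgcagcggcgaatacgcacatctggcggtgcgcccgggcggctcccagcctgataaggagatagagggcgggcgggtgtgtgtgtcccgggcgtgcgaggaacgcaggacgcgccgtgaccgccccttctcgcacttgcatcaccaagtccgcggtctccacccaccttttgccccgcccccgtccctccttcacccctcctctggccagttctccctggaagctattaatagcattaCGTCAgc
Junb: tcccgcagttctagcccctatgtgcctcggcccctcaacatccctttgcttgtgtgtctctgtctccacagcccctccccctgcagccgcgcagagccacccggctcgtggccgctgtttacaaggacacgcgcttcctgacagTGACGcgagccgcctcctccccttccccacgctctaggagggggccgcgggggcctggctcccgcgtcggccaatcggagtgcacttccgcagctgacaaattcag
Fos: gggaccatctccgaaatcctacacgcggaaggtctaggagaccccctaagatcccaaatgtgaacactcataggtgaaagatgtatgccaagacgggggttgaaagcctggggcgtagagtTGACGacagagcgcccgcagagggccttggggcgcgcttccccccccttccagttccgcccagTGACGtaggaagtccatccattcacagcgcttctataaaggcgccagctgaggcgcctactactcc

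Of 7 motifs searched on both strands, the AP-1 site TGACTCA, the full cAMP response element TGACGTCA, the EGR site GCGTGGGCG and the CArG box bound by SRF had no match in the 250 bases of any of these 7 promoters. Sequence farther upstream was not searched, so the absence of a match does not mean that a gene lacks the site. The Jun promoter held TGACATCA at positions -45 to -38 from the start and TTACCTCA at -164 to -157, both of which are known from work on Jun as sites that JUN and ATF2 pairs bind. TGACATCA is found in 3.62% and TTACCTCA in 0.889% of the 32851 RefSeq promoter windows of 300 bases. Shorter TGACG motifs, which also lie inside the full cAMP response element, were found at -60 to -56 in Fosb, at -106 to -102 in Junb, at -129 to -125 and -66 to -62 in Fos, and on the opposite strand at -7 to -3 in Atf3. TGACG is found in 20.8% of the windows. Jund and Fosl2 had no match to any of the 7 motifs in their windows. For Jund and Junb the bases just after the RefSeq start were found in no GENCODE transcript of the gene. Whether these 2 windows lie at a start used in follicles was not tested. TGACG and TTACCTCA were added after the sequences had been read, and a match is a description of letters. The ovulation table places the start of all 7 genes at the base next to its window, and the maturation table does so for Jun and Fos, while its gene models of the other 5 start elsewhere. The shares of windows with TGACTCA, TGACGTCA, GCGTGGGCG and the CArG box were 5.20%, 1.79%, 0.612% and 1.63%.

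Maturation levels were taken as TPM, which divide by transcript length and add up to 1000000 per library, and the depth behind them is unknown. The unit was inferred from the values. Comparisons of levels between genes in the maturation window, such as orders and family shares, hold only if it is right. Ovulation levels are in CPM, counts scaled to a total of 1000000 with TMM factors, from libraries of 11961104 to 16045755 counts in controls and 10600937 to 19511532 with PFNA, and are not comparable between genes or with TPM. All 10 granulosa markers had a mean of at least 1 TPM or CPM in both windows, as did 9 of 9 theca markers and 18 of 20 (maturation) or 19 of 20 (ovulation) oocyte markers. Summed oocyte markers ran from 257 to 400 TPM in maturation controls and from 11.2 to 628 TPM with PFNA, and summed granulosa markers from 36149 to 57971 and from 15284 to 43882 TPM. In that window 18 of 18 oocyte and 6 of 10 granulosa markers tested were lower with PFNA by limma. Among ovulation libraries, 6 of 9 theca markers were higher by edgeR's test and 1, Pdgfra, lower (log2 fold change -2.21), and their sum ran from 110 to 625 CPM in controls and from 445 to 1594 CPM with PFNA, with Tagln, a smooth muscle gene, going from a mean of 20.3 to 254 CPM. Of the granulosa markers there, 6 of 10 were higher, among them Cyp19a1 (2.23), Fshr (2.20) and Hsd17b1 (2.02), and 3 lower, and their sum was 12855 to 19873 CPM in controls and 11090 to 17058 CPM with PFNA. Endothelial markers were higher for 5 of 6 in those libraries, among them Emcn (2.28) and Pecam1 (1.45), with sums of 38.3 to 122 and 38.1 to 334 CPM, as were oocyte markers for 11 of 19, with sums of 163 to 614 and 21.3 to 807 CPM. Of 11 leukocyte markers 9 were in each table. Their sums apart from the T cell gene Cd3e were 2.12 to 86.0 and 34.5 to 205 TPM in the maturation window. In the ovulation window these sums were 1.36 to 120 and 4.14 to 160 CPM. By limma 2 of 4 leukocyte markers tested were higher in the maturation window, Cd68 and C1qa, and 0 lower. By edgeR's test 4 of 9 were higher in the ovulation window, Cd68, C1qa, C1qb and Cd3e, and 0 lower. The mean of Ptprc, which marks leukocytes, was 0.0635 TPM in maturation controls and 0.111 TPM with PFNA, too low to be tested. The part of these cells in the results below was not tested. In such bulk samples, fewer cells of a type and less RNA per cell cannot be told apart.

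PFNA went with higher Jun, Junb and Egr1 in the maturation window, by 1.93-fold to 2.15-fold on the log2(TPM + 1) scale, and with a split of the family in the ovulation window, where Jun, Fosb and Atf3 rose 5.81-fold to 9.84-fold while Junb, Fosl1, Fosl2 and Ier2 fell. With the oocyte transcript share of each library as a covariate, none of the 3 maturation calls held (adjusted p 0.30 for Jun, 0.33 for Junb and 0.30 for Egr1 in limma). In that fit 5.003% of all genes were called, and oocyte markers were themselves lower with PFNA, so the covariate overlaps with the treatment. None of the 3 calls held with the replicate number as a block either, and those of Junb and Egr1 were also lost on leaving out single libraries. Of the 9 factors tested in the maturation window 3 were higher and 0 lower at a Benjamini-Hochberg adjusted p under 0.05 in limma, against 13.3% higher and 16.1% lower, 29.4% in all, of 13712 genes. At an unadjusted p under 0.05 there were 4 higher and 0 lower. In no factor did every PFNA library lie beyond every maturation control, which 1.28% of the genes tested did. Of 10 factors tested in the ovulation window with edgeR's quasi-likelihood test, 5 were higher and 4 lower. This stands against 38.0% higher and 35.2% lower, 73.2% in all, of 13441 genes, so a call by itself is common in that window. Every PFNA library lay beyond every control for 4 of the 10, which was so for 26.3% of the genes tested. The median log2 fold change of the factors was 0.35 in the maturation window, against 0.023 over all genes tested, and 0.21 in the ovulation window, against 0.039.

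**Figure D1:**
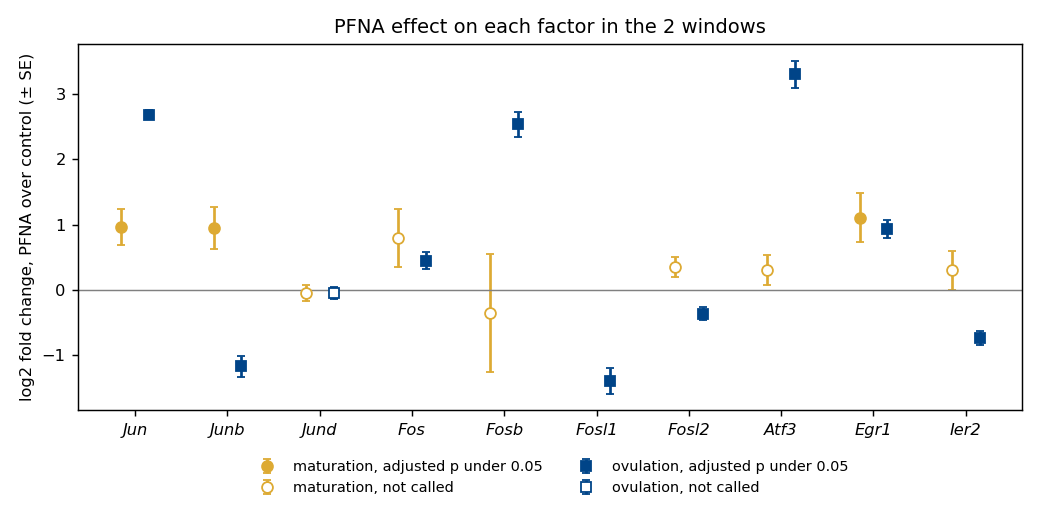
Log2 fold change of each factor with PFNA against control (y axis, with its SE from the fit), for the maturation window (circles, on the log2(TPM + 1) scale) and the ovulation window (squares); filled symbols had an adjusted p under 0.05. Jun and Egr1 have filled symbols above 0 in both windows, while Junb is at 0.95 in the maturation window and at -1.17 in the ovulation window.

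Jun encodes the AP-1 subunit that can pair with itself, with FOS proteins or with ATF factors, and it acts downstream of the JNK kinases. In maturation controls Jun stood at 2652, 1397, 1036, 828, 779, 777, 1493, 2197, 1847, 1143 and 1776 TPM in replicates 1 to 3 and 5 to 12. With PFNA it stood at 2526, 3340, 3462, 3171, 6634, 3935, 1418, 1807, 1849 and 1249 TPM in replicates 1 to 10. The groups overlapped, with PFNA replicates 2 to 6 above every control and replicates 1 and 7 to 10 within the control range. The means were 1448 ± 619 TPM (SD, n = 11) and 2939 ± 1597 TPM (SD, n = 10), for a log2 fold change of 0.97 with SE 0.28 (adjusted p = 0.013 in limma).

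Ovulation libraries of a group differed little in Jun. The controls were at 162, 151, 167, 143, 144, 165, 181, 175, 172, 151, 172 and 175 CPM in replicates 1 to 12. The PFNA libraries were at 1176, 1014, 946, 968, 1101, 937, 1303, 1068, 912, 928 and 874 CPM in replicates 1 to 11. No library overlapped, and the lowest PFNA value lay well above the highest control, 181 CPM. The means were 163 ± 13.0 CPM (SD, n = 12) and 1021 ± 130 CPM (SD, n = 11), for a log2 fold change of 2.68 with SE 0.069 (adjusted p = 3.1e-20 in edgeR). Jun had the smallest p of all 13441 genes tested in that window. A permutation test on the mean log2 level, two-sided with 100000 resamples, gave p = 0.00476 for the difference of 0.965 in the maturation window and p = 1e-05, the smallest it can give, for the difference of 2.63 in the ovulation window.

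**Figure D2:**
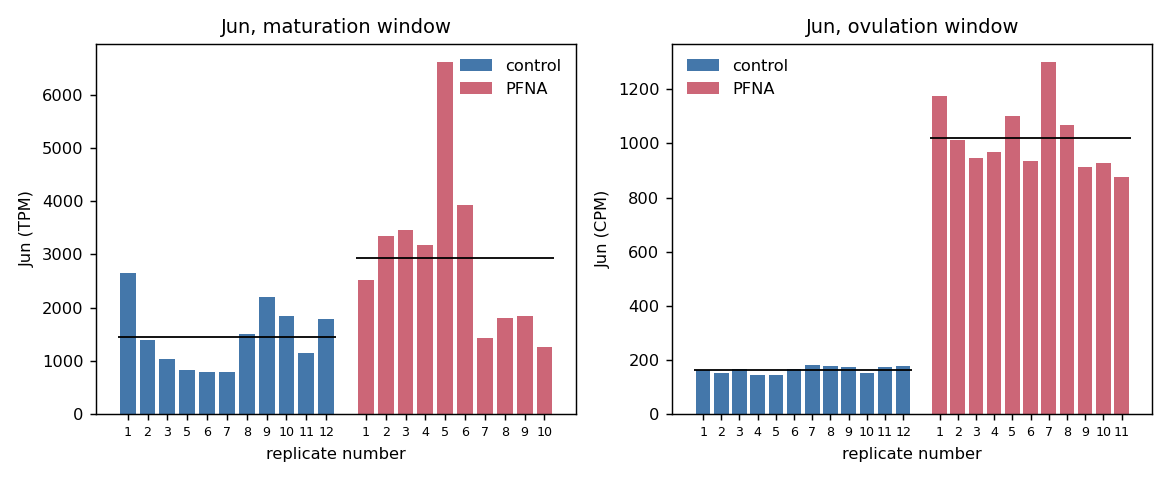
Jun in each library (x axis, replicate number within the group), in TPM for the maturation window and CPM for the ovulation window; bars are single libraries and horizontal lines are group means. PFNA replicate 5 of the maturation window is the highest at 6634 TPM, and the 11 PFNA libraries of the ovulation window lie between 874 and 1303 CPM, above the controls at 143 to 181 CPM.

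Junb encodes a JUN protein that activates less strongly than JUN at many AP-1 sites and can oppose it. Its maturation controls were at 46.1, 118 and 216 TPM (lowest, median and highest of 11) and the PFNA libraries at 119, 173 and 681 TPM. In 3 of 10 PFNA libraries Junb was above every control, and the log2 fold change was 0.95 with SE 0.32 (adjusted p = 0.031 in limma). In ovulation libraries the direction was the other way: controls were at 252, 417 and 624 CPM and PFNA libraries at 97.3, 186 and 285 CPM. There 8 of 11 PFNA libraries were below every control, and the mean fell from 449 ± 116 (SD, n = 12) to 196 ± 55.7 CPM (SD, n = 11), for a log2 fold change of -1.17 with SE 0.16 (adjusted p = 4.9e-07 in edgeR).

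Jund, the JUN family member that most tissues keep on without a stimulus, was the factor with the highest mean TPM of the 10 in maturation controls and did not pass the test in either window. Its levels were 2711, 3339 and 4419 TPM in maturation controls and 2196, 3283 and 4749 TPM with PFNA (log2 fold change -0.049 with SE 0.12, adjusted p = 0.80 in limma). Among ovulation libraries they were 428, 523 and 649 CPM and 274, 508 and 610 CPM (log2 fold change -0.039 with SE 0.091, adjusted p = 0.71 in edgeR). The groups overlapped in both windows.

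The balance within the JUN family differed between the groups of the ovulation window. The ratio of Jun to Junb counts within a library does not depend on how libraries are scaled. It was 0.229, 0.398 and 0.654 in ovulation controls (lowest, median and highest) and 3.75, 5.14 and 9.63 with PFNA, above every control in 11 of 11 libraries. The ratio of Jun to Jund was 0.264, 0.296 and 0.385 in those controls and 1.61, 1.88 and 3.42 with PFNA, again without overlap. Within the maturation window the Jun to Junb ratio in TPM overlapped widely, at 9.66, 12.3 and 21.0 in controls and 7.46, 13.97 and 21.7 with PFNA, while the Jun to Jund ratio was 0.274, 0.409 and 0.600 in controls and 0.569, 0.742 and 1.40 with PFNA, above every control in 8 of 10 libraries. Of the summed TPM of the JUN genes in that window, Jun made up 28.0 ± 5.71% over the controls (SD, n = 11) and 43.0 ± 6.76% over the PFNA libraries (SD, n = 10). These ratios were chosen after the levels had been seen, and carry no test.

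**Figure D3:**
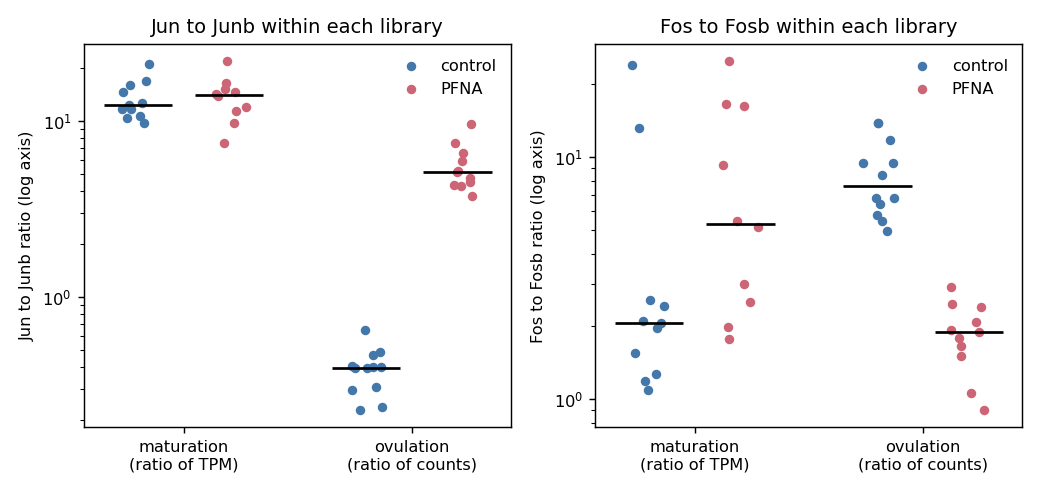
Ratio of Jun to Junb (left) and of Fos to Fosb (right) within each library, on log axes; points are libraries and lines are group medians, as ratios of TPM in the maturation window and of counts in the ovulation window, so heights are not comparable between windows. In the ovulation window the ratios of the groups do not overlap, with Jun to Junb medians of 0.398 and 5.14 and Fos to Fosb medians of 7.61 and 1.91.

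Fos, whose protein cannot pair with itself and needs a JUN partner, and whose transcript is among the shortest-lived, varied widely in the maturation window. Its levels were 86.5, 269 and 678 TPM in controls and 132, 361 and 2073 TPM with PFNA, and 3 of 10 PFNA libraries were above every control. The log2 fold change of 0.80 with SE 0.44 (adjusted p = 0.19 in limma) did not pass. Within the ovulation window Fos rose from 45.0, 56.1 and 72.2 CPM to 43.2, 71.6 and 143 CPM, by a log2 fold change of 0.45 with SE 0.13 (adjusted p = 0.0036 in edgeR), and the groups overlapped.

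Fosb encodes a FOS protein made in a full and a shortened form, which a gene-level value does not separate. In ovulation libraries it rose from 3.83, 7.68 and 12.5 CPM to 26.5, 44.4 and 64.5 CPM, with no overlap. The mean went from 7.60 ± 2.87 (SD, n = 12) to 43.1 ± 11.04 CPM (SD, n = 11), for a log2 fold change of 2.54 with SE 0.19 (adjusted p = 1.5e-11 in edgeR). The Fos to Fosb ratio moved with it, from 4.94, 7.61 and 13.9 in controls to 0.903, 1.91 and 2.91 with PFNA, below every control in 11 of 11 libraries. In maturation libraries Fosb was the most uneven of the 9 factors tested, at 3.61, 128 and 532 TPM in controls and 8.39, 67.1 and 1167 TPM with PFNA, and it did not pass (log2 fold change -0.35 with SE 0.91, adjusted p = 0.80 in limma).

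The Fos-related antigens fell in the ovulation window. Fosl1, which encodes FRA1, was at 22.6, 37.1 and 54.0 CPM in controls and 6.23, 11.99 and 28.0 CPM with PFNA, below every control in 10 of 11 libraries (log2 fold change -1.39 with SE 0.20, adjusted p = 8.3e-07 in edgeR). Fosl2, which encodes FRA2, was at 568, 721 and 857 CPM in controls and 392, 558 and 722 CPM with PFNA (log2 fold change -0.36 with SE 0.098, adjusted p = 0.0018 in edgeR), with 6 of 11 libraries below every control. Among maturation libraries Fosl1 was listed at 0, 0 and 0.718 TPM in controls and at 0, 0.233 and 2.62 TPM with PFNA, under the minimum mean of 1 TPM, and was not tested. There Fosl2 had the highest mean TPM of the FOS genes, at 356, 509 and 727 TPM in controls and 423, 632 and 956 TPM with PFNA. It did not pass (log2 fold change 0.35 with SE 0.15, adjusted p = 0.082 in limma).

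Atf3, a stress-induced leucine zipper factor that pairs with JUN proteins and often represses, had the largest fold change of the 10 in the ovulation window. Controls were at 5.91, 11.2 and 23.5 CPM and PFNA libraries at 67.0, 121 and 153 CPM, with no overlap. The mean rose from 12.1 ± 5.29 (SD, n = 12) to 116 ± 28.1 CPM (SD, n = 11), for a log2 fold change of 3.30 with SE 0.21 (adjusted p = 1.1e-12 in edgeR). Maturation levels of Atf3 were low, at 0.996, 2.11 and 3.95 TPM in controls and 1.204, 2.89 and 5.81 TPM with PFNA, and the factor did not pass (log2 fold change 0.31 with SE 0.22, adjusted p = 0.32 in limma). The pseudocount of 1 TPM understates fold changes at such levels.

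Egr1, a zinc finger activator that the ovulatory hormone surge is known to induce, was higher with PFNA in both windows. Within the maturation window it was at 180, 645 and 1466 TPM in controls and 622, 1223 and 4030 TPM with PFNA, with 3 of 10 libraries above every control (log2 fold change 1.10 with SE 0.37, adjusted p = 0.031 in limma). Among ovulation libraries it was at 454, 582 and 966 CPM in controls and 812, 1221 and 1756 CPM with PFNA. There 10 of 11 libraries were above every control, and the mean rose from 650 ± 178 (SD, n = 12) to 1220 ± 250 CPM (SD, n = 11), for a log2 fold change of 0.94 with SE 0.14 (adjusted p = 1.1e-06 in edgeR).

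Ier2 encodes a small nuclear protein of the immediate-early class that is not a leucine zipper factor. In the ovulation window it fell from 205, 271 and 364 CPM to 105, 163 and 190 CPM, with all 11 PFNA libraries below every control (log2 fold change -0.74 with SE 0.10, adjusted p = 7.4e-07 in edgeR). In maturation libraries it was at 255, 589 and 933 TPM in controls and 298, 585 and 1906 TPM with PFNA (log2 fold change 0.30 with SE 0.30, adjusted p = 0.49 in limma). In controls of that window the order of mean levels was Jund, Jun, Egr1, Ier2, Fosl2, Fos, Fosb, Junb, Atf3 and Fosl1, and the ranges of neighbours in this order overlapped except those of Jund and Jun, of Junb and Atf3, and of Atf3 and Fosl1.

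**Figure D4:**
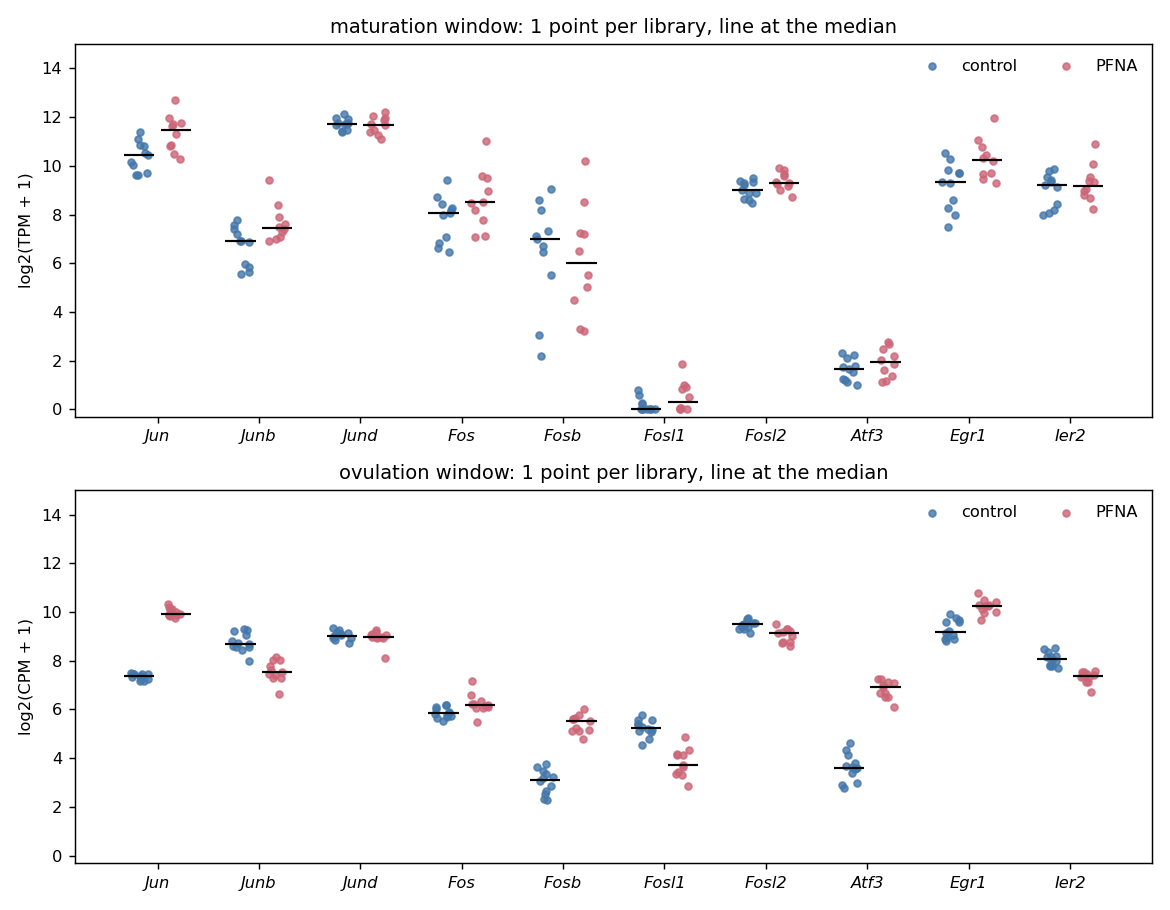
Level of each of the 10 factors in every library, as log2(TPM + 1) in the maturation window (top) and log2(CPM + 1) in the ovulation window (bottom); points are libraries, lines are medians. Within the ovulation window the control and PFNA points of Jun, Fosb, Atf3 and Ier2 do not overlap, and no factor separates the groups in the maturation window.

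The maturation calls of Junb and Egr1 depended on single libraries, and no ovulation call did. Jun kept its call in each of the 21 fits that left out a maturation library (log2 fold change 0.82 to 1.08, adjusted p 0.0058 to 0.026). Only 1 of the 3 factors, Jun, was called without control replicate 3, 5, 6 or 7 or without PFNA replicate 5 or 6, and Egr1 was also lost without PFNA replicate 4. In those fits the log2 fold change was 0.75 to 0.88 for Junb (adjusted p 0.0535 to 0.0573 in limma) and 0.92 to 1.05 for Egr1 (adjusted p 0.0510 to 0.0579 in limma). Without PFNA replicates 1 and 2 together, 4 of 9 factors were higher, Fosl2 being the addition (log2 fold change 0.46, adjusted p = 0.019 in limma). With the oocyte transcript share of each library as a covariate, limma called 0 of 9 factors, 0 at an unadjusted p under 0.05 and 5.003% of all genes, with log2 fold changes of 0.73 for Jun, 0.80 for Junb and 0.98 for Egr1. In ovulation libraries the same 5 factors were higher and the same 4 lower in each of the 23 fits that left out a library and under each of the 7 other settings, DESeq2 and the oocyte covariate among them.

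Whether PFNA acted alike on the factors in both windows was tested as the ovulation effect minus the maturation effect, each fitted with limma in its own table. Of 9 factors tested 6 differed, 3 toward higher and 3 toward lower levels with PFNA in the ovulation window, against 68.1% of 11215 genes, 30.8% higher and 37.4% lower. The effect was higher by 2.91 for Atf3 (adjusted p = 1.5e-11), 2.75 for Fosb (0.011) and 1.67 for Jun (1.9e-05) on the log2 scale. It was lower for Junb by -2.15 (4.4e-06), for Ier2 by -1.06 (0.0050) and for Fosl2 by -0.76 (0.00027). The differences for Fos (-0.43, adjusted p = 0.42), Egr1 (-0.17, 0.71) and Jund (-0.036, 0.85) did not pass. Junb alone among the 10 was called in opposite directions.

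Across the libraries of a group, most of the factors rose and fell together in the maturation window, and Fosl2 did so least. Over 11 controls the Pearson correlation of log2 levels had a median of 0.895 in the 36 pairs of the 9 factors (0.220 to 0.983), and over 10 PFNA libraries a median of 0.807 (0.0099 to 0.957). An adjusted permutation p under 0.05, adjusted over 162 relations, was reached by 28 of 36 and 26 of 36 pairs, and without the 2 libraries farthest from the median of the first gene the median r was 0.877 and 0.760. Among ovulation libraries the median of the 45 pairs of the 10 factors was 0.571 over 12 controls (-0.375 to 0.944, 18 pairs with an adjusted p under 0.05) and 0.161 over 11 PFNA libraries (-0.620 to 0.895, 6 pairs). Within Jun, Junb, Fos, Fosb, Egr1 and Ier2, a subset chosen after the correlations had been seen and given as a description, the 15 pairs had medians of 0.924 and 0.897 in maturation controls and PFNA libraries and 0.734 and 0.424 in those of the ovulation window. Jun and Fos, for example, had r = 0.924 and Spearman's rho = 0.873 in the 11 maturation controls (permutation p = 9e-05 and 0.0009, adjusted p = 0.00069 and 0.0047, r = 0.866 without the 2 farthest). In ovulation controls the pairs of Jun with the other 5 of that subset had r from -0.354 to -0.182, none with an adjusted p under 0.05, and from 0.122 to 0.316 without the 2 farthest libraries, so their sign rests on those libraries. Junb and Egr1 had r = 0.904 (rho = 0.951, adjusted permutation p = 0.00027 and 0.00054) and Egr1 and Ier2 had r = 0.944 (rho = 0.909, adjusted permutation p = 0.00016 and 0.0013) in the 12 ovulation controls, and r was 0.909 and 0.905 without the 2 farthest. Libraries share their scaling and depth, which such correlations include, and the difference in correlation between windows was not tested. How often pairs of other genes correlate as closely was not computed, so these counts do not set the factors apart from other genes.

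**Figure D5:**
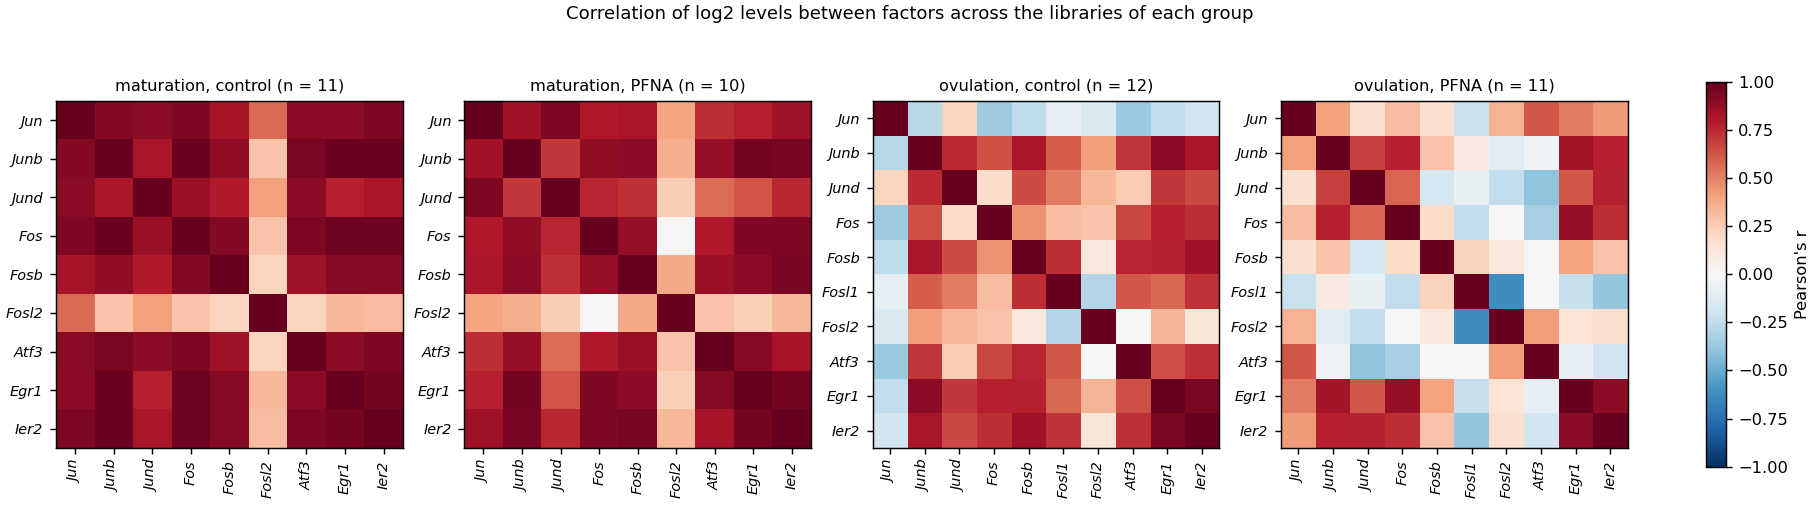
Pearson correlation of log2 levels between pairs of factors across the libraries of each group, from blue (-1) through white to red (1). Fosl1 is left out of the maturation panels for its low level; the median over all pairs is 0.895 and 0.807 in the maturation panels and 0.571 and 0.161 in the ovulation panels, and over the pairs among Jun, Junb, Fos, Fosb, Egr1 and Ier2 it is 0.924, 0.897, 0.734 and 0.424 in the same order.

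Once the group means had been removed, the genes most like Jun over the 21 maturation libraries, among 7047 with a mean of at least 10 TPM, were Ifrd1 (r = 0.936), Btg1 (0.932), Jund (0.916), Dusp8 (0.914) and Btg2 (0.909). Jund thus tracked Jun from library to library, although it did not pass the test between groups. Over the 23 ovulation libraries and 9011 genes they were Elf2 (0.723), Ubl7 (0.644), Kank2 (0.641), Ssbp1 (0.612) and Glmn (0.596), and no other of the 10 factors described here exceeded 0.203. These are the highest of many correlations and are given as a description.

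Genes that work with AP-1 and EGR1 were taken from lists, whose counts stand beside the shares of all genes called and the medians over all genes given above. Changes and medians given without a unit for these lists, here and below, are log2 fold changes. Of the other leucine zipper genes, 16 were tested in the maturation window, with 7 higher and 0 lower (0 also at an unadjusted p under 0.05) and a median log2 fold change of 0.26. Those of smallest p were Jdp2, an AP-1 repressor (0.71), Ddit3, which encodes the stress factor CHOP (0.59), Bach1 (0.50) and Creb1 (0.30). In the ovulation window 8 of 19 were higher and 5 lower, with a median of 0.14. Ddit3 rose from 5.15 ± 1.03 (SD, n = 12) to 30.9 ± 7.83 CPM (SD, n = 11), for a log2 fold change of 2.61 (adjusted p = 1.3e-14 in edgeR), and Bach2 by 1.18, while Bach1 fell by 1.42 and Nfe2l2, the oxidative stress factor NRF2, fell by 0.85. Bach1 was thus called in opposite directions in the 2 windows.

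The relatives of Egr1 moved in both directions in the ovulation window. Egr3 fell from 510 ± 118 (SD, n = 12) to 86.5 ± 25.2 CPM (SD, n = 11), for a log2 fold change of -2.53 (adjusted p = 3.0e-12 in edgeR), with all 11 PFNA libraries below every control. Egr4 rose by 2.67 from a mean of 1.503 CPM, Egr2 rose by 0.81 and the EGR corepressor gene Nab2 by 0.37, so 3 of 6 genes were higher and 1 lower, with a median of 0.28. Among maturation libraries 1 of 6 was higher, Nab2 at 0.76 (adjusted p = 0.0022 in limma), and 0 were lower (2 higher and 0 lower at an unadjusted p under 0.05), with a median log2 fold change of 0.55.

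Other immediate-early genes were higher in the maturation window for 19 of 39 tested and lower for 0 (24 and 0 at an unadjusted p under 0.05), with a median of 0.46. Klf2 (1.23), Dusp6, a feedback phosphatase of ERK (1.09), Id2 (0.89) and Klf10 (0.82) had the smallest p, and for Klf10 all 10 PFNA libraries were above every control. Within the ovulation window 11 of 40 were higher and 21 lower, with a median of -0.40. Ccn1, a matrix protein gene (2.36), rose, and Id2 (-3.43), Ier5 (-3.31) and the clock gene Per1 (-2.28) fell, each without overlap between groups.

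SRF drives many immediate-early promoters through the CArG box. In ovulation libraries Srf rose from 54.6 ± 3.57 (SD, n = 12) to 191 ± 29.8 CPM (SD, n = 11), for a log2 fold change of 1.84 (adjusted p = 3.9e-17 in edgeR), and Fhl2, a cofactor gene, rose by 3.06, both without overlap. Mrtfb rose by 0.42 and Elk3, an ETS-type SRF partner, fell by 0.99, so that 4 of 7 genes were higher and 3 lower (median 0.29). In the maturation window 1 of 7 was higher, Fhl2 at 0.43, and 0 were lower, also at an unadjusted p under 0.05 (median 0.10).

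Of the kinase genes upstream of AP-1, in the maturation window 1 of 18 was higher, Braf at 0.31, and 4 lower, among them Map2k1 at -0.35, Rps6ka3 at -0.27 and Map2k2 at -0.18 (median 0.027). Among ovulation libraries 3 of 21 were higher and 10 lower (median -0.18). Map2k3 (-1.14), Mapk14, which encodes the p38 kinase (-1.002), and Map2k2 (-0.76) were below every control in all 11 PFNA libraries, and Mapk10, which encodes a JNK, rose by 2.24 from a mean of 1.06 CPM. These are transcript levels, which do not measure kinase activity.

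Textbook targets of AP-1 or EGR1 moved in both directions in the ovulation window: 8 of 24 were higher and 12 lower, with a median of -0.60. On the log2 scale Ptgs2, the prostaglandin synthase gene needed for ovulation, fell by 5.21. The plasminogen activator gene Plau fell by 2.62 and the protease inhibitor gene Timp1 by 2.01, while the heme oxygenase gene Hmox1 rose by 1.46. The edgeR adjusted p was at most 3.0e-11 for each of these genes. Within the maturation window 6 of 19 were higher and 1 lower (median 0.34). Ereg (0.73) and Hbegf (0.70), which encode ligands of the EGF receptor family, were among those that rose there, and Ptges fell by 0.53.

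Heat shock genes, another class of fast stress genes, were higher with PFNA for 8 of 13 in the maturation window (median 0.25) and for 12 of 13 in the ovulation window (median 1.23). None was lower by limma in the maturation window or by edgeR, DESeq2 or limma in the ovulation window, or at an unadjusted p under 0.05. On the log2 scale, Hspa1b rose in the ovulation window by 7.08, Hspa1a by 6.96, Hspb1 by 4.12 and Hspa8 by 1.52, each without overlap. In maturation libraries Hspa1a rose by 2.15, Hspa1b by 2.12, Hspb1 by 0.98 and Dnajb1 by 0.85 on the same scale. Hspa1a and Hspa1b are nearly the same in sequence, so how reads were divided between them is uncertain.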

How the data were processed

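For each window the authors deposited 1 table of genes, made with Partek, Bowtie2 and HISAT2 per the submitters' processing notes, which give no roles or versions. The genome build, annotation and use of strand are not given in the sources used here. The name of the maturation table speaks of raw counts, whereas what the authors deposited is TPM: each column sums to 1000000 and 83.5% of its values are not whole numbers, so the planned TPM test was used. For ovulation the deposited values are estimated counts, 18.5% of them not whole, and these were rounded. Columns were matched to samples by title, except that the maturation column whose name differed by a letter was taken as control replicate 6.

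TPM were tested with limma 3.58.1 (trend and robust) on log2(TPM + 1) over genes whose mean reached 1 TPM. Counts were tested with edgeR 4.0.16 (filterByExpr, TMM, quasi-likelihood, robust) in R 4.3.3, and with DESeq2 1.42.0 and limma as alternatives. P-values were adjusted over all genes tested by Benjamini-Hochberg, with 0.05 as the threshold. Both main procedures were run on simulated counts drawn from the mean levels of ovulation controls, with the same dispersion for every gene and few genes changed. The maturation values, with their wider spread, were not simulated. The members, lists and rules were chosen with earlier results of these data known. All 10 factors are named, plus the 4 genes of smallest adjusted p per list and window and the 5 genes most like Jun. Correlations used 100000 permutations. Promoter windows are from RefSeq (GRCm38.p6). Alternatives covered pseudocount, filter, scaling, tool, oocyte share, replicate numbers and each library left out. One target gene that the rule for named genes selects is not reported here.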

Additional observations from a re-analysis of the deposited data

Results flagged for a closer look

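In the maturation PFNA group of 10 libraries, a single library stood apart from the others in TPM for 7 of the 10 factors. The gap was wider than Dixon's 95% critical value for that number. Chance gives about 1 in 20, or 0.5 of 10, only if values are normally distributed, which was not tested for TPM. Gaps at the high end are smaller on a log2 scale, which was not searched. In 6 of the 7 the library was replicate 5, and those 6 genes correlate across libraries, so they are not separate events. Replicate 5 had 6634 TPM of Jun against 3935 in the next highest library, 681 against 331 TPM of Junb, 2073 against 775 TPM of Fos, 1167 against 359 TPM of Fosb, 4030 against 2162 TPM of Egr1 and 1906 against 1070 TPM of Ier2. Fosl1 was highest in replicate 4, at 2.62 against 1.02 TPM. Groups of more than 10 libraries were not searched.

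For 6 of the 9 factors tested, the PFNA effect differed between windows by a test of the difference itself, which was so for 68.1% of the 11215 genes tested, so the count is near the share of all genes. The ovulation effect minus the maturation effect, on the log2 scale, was 1.67 for Jun, 2.75 for Fosb and 2.91 for Atf3, and -2.15 for Junb, -0.76 for Fosl2 and -1.06 for Ier2. The tables of the windows hold different units and gene models, and whether these bear on the differences was not tested.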

How the results depend on the processing

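Among ovulation libraries 5 factors were higher and 4 lower under every setting run. In the maturation window 3 were higher, and the number fell to 0 once oocyte share was a covariate, where the adjusted p of Jun, Junb and Egr1 was 0.30, 0.33 and 0.30 in limma. With the replicate number as a block (replicate block) it also fell to 0, with 3 at an unadjusted p under 0.05 and log2 fold changes of 0.95 (adjusted p = 0.091), 1.05 (0.11) and 1.12 (0.13). Over all settings run their adjusted p ranged from 0.0058 to 0.30, 0.018 to 0.33 and 0.016 to 0.30. The cause was not tested. Leaving out each library in turn gave 1 to 4 factors higher, the fourth being Fosl2 without control replicate 10 or PFNA replicate 1. Fosl2 was also called without PFNA replicates 1 and 2 together (0.46, adjusted p = 0.019, range 0.019 to 0.995).

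Jund changed sign at values near 0 in the ovulation window, to 0.0546 with totals taken without the 100 most abundant genes and between -0.0701 and 0.0222 as libraries were left out. In the maturation window it ran from -0.109 to 0.0144 as libraries were left out, and its difference between windows was 0.0389 with median-ratio size factors and 0.0320 without maturation PFNA replicates 1 and 2. Of all maturation calls 45.3% were higher, and 55.6% after rescaling without the 100 most abundant genes. Libraries of the same replicate number had correlations of deviations from -0.215 to 0.217 in 9 maturation pairs and from -0.228 to 0.124 in 11 ovulation pairs. Over 0.1 were 1 of 9 and 1 of 11. Such values carry no test and cannot tell whether libraries of the same number shared an animal or a culture, which the labels do not give. The depth behind TPM is unknown, which limits statements on Atf3 and Fosl1 in that window.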

Other observations

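Cd3e, a T cell receptor chain gene in the leukocyte marker list, was at 0 to 0.516 CPM in the 12 ovulation controls and at 150 to 630 CPM in the 11 PFNA libraries. Its neighbours in the receptor complex did not reach such levels, with at most 4.85 CPM of Cd3d and 18.6 CPM of Cd3g in any PFNA library. In the maturation window the mean of Cd3e was 0.0365 TPM in controls and 0.0464 TPM with PFNA. This gene was singled out after its values were seen.

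The Egr1 to Fos ratio, chosen in the same way, was 8.12, 10.9 and 14.7 in ovulation controls (lowest, median and highest) and 12.3, 17.1 and 18.8 with PFNA, above every control in 9 of 11 libraries. In the maturation window it was 2.08, 2.57 and 3.13 in controls and 1.65, 3.60 and 4.97 with PFNA, where 6 of 10 libraries were above and 2 below every control.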
